A study of Arabidopsis thaliana with 4 samples.

Results

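The broad common regions on the chromosome arms of *Arabidopsis thaliana* were examined in a ChIP-seq experiment on the transcription factor AtbZIP17. A common region is a stretch of merged peaks in which each of the 3 ChIP replicates has at least 1 peak, where peaks were merged if they overlapped by at least 1 bp. The 3 peak lists merged into 8992 regions, of which 1341 were common, or 14.9%. A common region was taken as broad when its merged width was at least 2500 bp. It was taken as an arm region when it lay outside a window around each centromere, namely 12.5 to 17.5 Mb on chromosome 1, 1.5 to 6.0 Mb on chromosome 2, 11 to 16.5 Mb on chromosome 3, 2.5 to 5.5 Mb on chromosome 4 and 9.5 to 14.5 Mb on chromosome 5. There were 268 broad arm regions, which is 20% of the common regions. Another 1036 common regions on the arms were narrower, called compact here, and 7 broad common regions lay in the pericentromeric windows. The regions were chosen by merged width and by the presence of a peak in every replicate, and both measures come from the same peak calling as the enrichment, so the values below describe the regions and no test was made between broad and compact regions.

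The samples were 13-day-old seedlings in the Col-0 background that carried *35Spro::MYC-bZIP17*, grown at 22 °C and placed at 42 °C for 2 h. There were 3 ChIP samples precipitated with an anti-MYC antibody, called replicates 1, 2 and 3, and 1 input sample with no antibody from the same genotype and treatment. The 35S promoter is known to be strong and active in most tissues, unlike a gene's own promoter, and no unheated or untagged sample was among those analysed. Peak calling used this input for every list, and no source used here says that the replicates came from separate cultures, so the spread given below may be technical.

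AtbZIP17 is made as a protein anchored in the membrane of the endoplasmic reticulum (ER). Under stress such proteins move to the Golgi, where proteases release the part that binds DNA, and this part enters the nucleus and activates genes. Its relatives AtbZIP28 and AtbZIP60 are the best known activators of the unfolded protein response (UPR), in which the ER raises its supply of chaperones, folding enzymes and components that remove misfolded proteins. AtbZIP17 is also known for its role in salt stress and abscisic acid (ABA) signalling.

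ChIP-qPCR primer pairs were designed by the study for 5 genes at broad arm regions, and they are shown here without its RT-qPCR primers. The sequences run 5′ to 3′, and capitals mark ACGT, the core that bZIP proteins contact in many plant promoters.
*SDF2* forward: tgccggatctagtacccata
*SDF2* reverse: cgcaggtgtACGTttagatagc
*ERDJ3B* forward: cgACGTcgtactcattaaagt
*ERDJ3B* reverse: ctcgaatcactctctctac
*SHD* forward: gtcgtccatccacgccacaa
*SHD* reverse: gattcagtgatgtgtgaactg
*CNX1* forward: caggcccaataactatgctc
*CNX1* reverse: tattcaatcccgtagacccg
*ATHB-7* forward: tgcgtaagcaaatagctgga
*ATHB-7* reverse: tgtgtgacgggtgtttttgt
The core occurs in 1 primer of *SDF2* and 1 primer of *ERDJ3B*. The primers were not placed on the genome, so where the amplicons lie within the regions was not measured.

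The broad arm regions held 396 peaks of replicate 1, 383 of replicate 2 and 407 of replicate 3, or 8.76, 8.53 and 9.40% of each list, and they covered 1085.81 kb. These few peaks include most of the strongest ones. Of the 50 peaks with the highest fold enrichment in a list, 48 lay in broad arm regions in each replicate, and of the first 100 peaks 92, 92 and 94 did. Fold enrichment is the authors' ratio of the pileup, which counts the fragments at the summit, to a local background that MACS derived from the input. The strongest peak of each replicate stands for a region hereafter. The median fold enrichment over the 268 regions was 7.07 in replicate 1, 8.16 in replicate 2 and 8.26 in replicate 3. Averaged over the replicates it ran from 2.27 to 43.1 with a median of 7.82, against a median of 2.78 in the compact regions and 7.86 in the 7 pericentromeric ones. The mean pileup ran from 35 to 778 fragments with a median of 137, while the local background, pileup divided by fold enrichment, was 13.1 to 27.8 fragments, with a median of 17.3 (16.5 in the compact regions). The broad regions thus differed from the compact ones in pileup far more than in background. A fold enrichment of at least 3 in every replicate was found in 42.7% of all common regions and in 247 of the 268 broad arm regions (92.2%). A *q* value below 1e-05 in every replicate was found in 59.4% of all common regions and in 257 broad arm regions (95.9%).

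The merged width of the broad arm regions ran from 2508 to 13436 bp with a median of 3531.5 bp, and 49 regions were at least 5000 bp wide. Wider regions had higher enrichment. The median fold enrichment was 5.40 in the 71 regions under 3000 bp, 6.84 in the 100 regions from 3000 to 4000 bp, 11.8 in the 48 regions from 4000 to 5000 bp, 13.2 in the 32 regions from 5000 to 7000 bp and 21.9 in the 17 regions of 7000 bp or more. Spearman's rho of width and mean fold enrichment was 0.586 across the 268 regions. Both values come from the same peaks and lists, so the relation describes the calls. As examples picked after their values were seen, the 8430-bp region between *GATL3* and *RAV1* had a mean of 4.84 and the 2874-bp region between *MYB108* and *A/N-InvC* had 19.5.

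**Figure D1:**
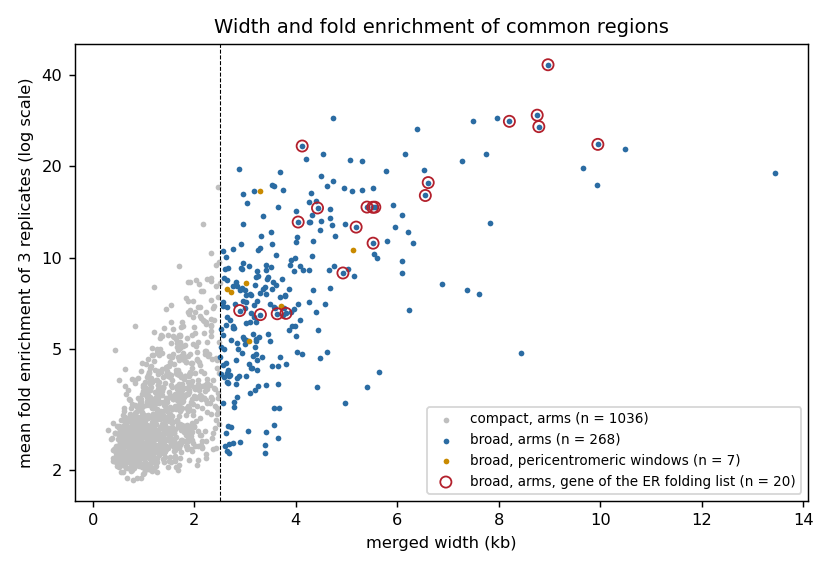
Merged width in kb (x axis) and mean fold enrichment of 3 replicates (y axis, log scale) of the common regions; each point is a region, the dashed line is the 2500-bp limit and red circles mark the 20 broad arm regions at a gene of the ER folding list. The broad arm regions have a median fold enrichment of 7.82 and the compact regions 2.78, and the circled regions lie between 6.49 and 43.1.

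On both sides of the limit the enrichment overlapped. The 3 narrowest broad regions were 2508, 2525 and 2532 bp wide, at *AT3G56350*/*AT3G56360*, *ESM1* and *HMGB1*, with mean fold enrichments of 4.72, 5.06 and 5.82. The 3 widest compact regions were 2496, 2489 and 2488 bp wide, at *PDIL1-3*, *RH20* and *CPK15*, with 8.24, 5.26 and 4.16. *PDIL1-3* encodes a protein disulfide isomerase, an enzyme class that forms disulfide bonds in the ER, and it missed the limit by a few bases.

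Genes known from ER protein folding and the UPR were frequent at the broad arm regions. A gene was joined to a region when the mean summit lay in it, when it was 1 of the 2 protein-coding genes that flank the summit, or when the study's table of target genes lists it for a peak of the region. Of a list of 39 such genes, 20 were at a broad arm region (51.3%), 2 were at a compact region, 3 were at a pericentromeric common region and 14 were at no common region. Of the 27444 protein-coding genes of the reference, 512 were at a broad arm region (1.87%) and 1614 at a compact region (5.88%). The list was written with earlier results of these data known, so its count is a description. It does not hold every gene of these families, and *PDIL1-3*, at a compact region, is not on it. The study's table alone, of which only a part was used, joined 9 of the 20 genes to these regions. The 20 regions had a median fold enrichment of 14.6, from 6.49 to 43.1, and a median width of 5457.5 bp. Among the 268 regions ranked by mean fold enrichment, 14 of the 20 were within the first 67, and 15 reached a mean of 10.

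Chaperones of the ER lumen and membrane stood at the head of this group. *SHD* encodes the ER member of the HSP90 family, and its region at chr4:12551589-12560555 was the strongest of all. The mean fold enrichment there was 43.1 ± 6.99 (SD, n = 3), and each replicate had 1 further, weaker peak in the region. *AT5G07340*, which the reference gives no other name, had 23.8, 32.5 and 31.98 in the 3 replicates at chr5:2313126-2321879, a mean of 29.4 ± 4.91 (SD, n = 3). Its summits lay within 33 bp, between *AT5G07330* and *AT5G07340*. *ERDJ3B*, a J-domain partner of the luminal HSP70 BiP, and *CNX1*, a lectin chaperone of the ER membrane, had means of 28.1 ± 5.19 and 27.0 ± 2.91 (SD, n = 3). In all 4 regions replicate 1 was the lowest and did not reach the values of the other replicates, which lay close to each other.

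The calreticulins are luminal relatives of calnexin that bind sugar chains on folding proteins. At *CRT1a* (chr1:21085248-21095196, 9949 bp) the fold enrichment was 19.5, 23.8 and 27.5, a mean of 23.59 ± 4.01 (SD, n = 3), and the summits lay at 0.759 of the region's length from its left end. At *CRT1b* (chr1:2974673-2978796) it was 19.7, 25.8 and 24.4, a mean of 23.3 ± 3.23 (SD, n = 3). The 2 means differed by less than either SD, although the *CRT1b* region was only 4124 bp wide, with 1 peak per replicate. *CRT3* was at no common region.

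The BiP proteins are the HSP70 chaperones of the ER. *BiP2* (chr5:16808886-16814399) had 12.5, 15.3 and 16.0, a mean of 14.6 ± 1.86 (SD, n = 3). *BiP3* (chr1:2929644-2935164), known as strongly induced by ER stress, had 10.3, 11.7 and 11.5, a mean of 11.2 ± 0.782 (SD, n = 3). *BiP1* lies in a pericentromeric window and was left out by the rule. The value of *BiP3* was below that of *BiP2* in every replicate. Proteins that work with BiP were also present, with 14.6 ± 0.608 at *SDF2* and 12.6 ± 1.43 at the J-domain protein gene *P58IPK* (SD, n = 3), while *ERDJ3A* and *ERDJ2A* were at no common region.

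Enzymes of disulfide bond formation made up the next group. *ERO1*, whose protein supplies oxidising power to the isomerases, had 14.1, 15.5 and 14.3, a mean of 14.7 ± 0.757 (SD, n = 3), at chr1:27212189-27217589. Of the protein disulfide isomerase genes, *PDIL2-3* (chr2:13962115-13968721) had the highest mean, 17.7 ± 3.01 (SD, n = 3), with 14.3, 18.5 and 20.1 in the replicates. *PDIL2-2* followed with 16.0 ± 1.05, *PDIL2-1* (also *UNE5*) with 13.1 ± 1.01, *PDIL1-1* with 8.90 ± 1.51 and *PDIL1-2* with 6.69 ± 0.280 (SD, n = 3). The 3 *PDIL2* genes lay above *PDIL1-1* and *PDIL1-2* in every replicate. *PDIL1-4* and *ERO2* were at no common region.

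Components that carry misfolded proteins out of the ER for degradation ranged from values near those of *ERO1* to the lowest of the list. *DER1*, a derlin of the ER membrane, had 12.1, 15.4 and 16.5, a mean of 14.7 ± 2.30 (SD, n = 3), at chr4:14441643-14447197. The ubiquitin ligase gene *Hrd1B* had 4.83, 7.71 and 7.12, its partner *EBS5* (also *HRD3A*) had 5.51, 6.81 and 7.28, and the ubiquitin-conjugating enzyme gene *UBC32* had 5.30, 7.19 and 6.98. Their means of 6.55 ± 1.53, 6.53 ± 0.915 and 6.49 ± 1.04 (SD, n = 3) did not differ beyond the spread. All 3 lay under the median of the broad arm regions, 7.82. The sensors, proteases and transcription factors of the pathway were not among the broad arm regions. *IRE1A*, *IRE1B*, *S1P*, *S2P*, *bZIP17*, *bZIP28* and *NAC103* were at no common region, *bZIP60* lay in a pericentromeric window, and *NAC062* was at a compact region.

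**Figure D2:**
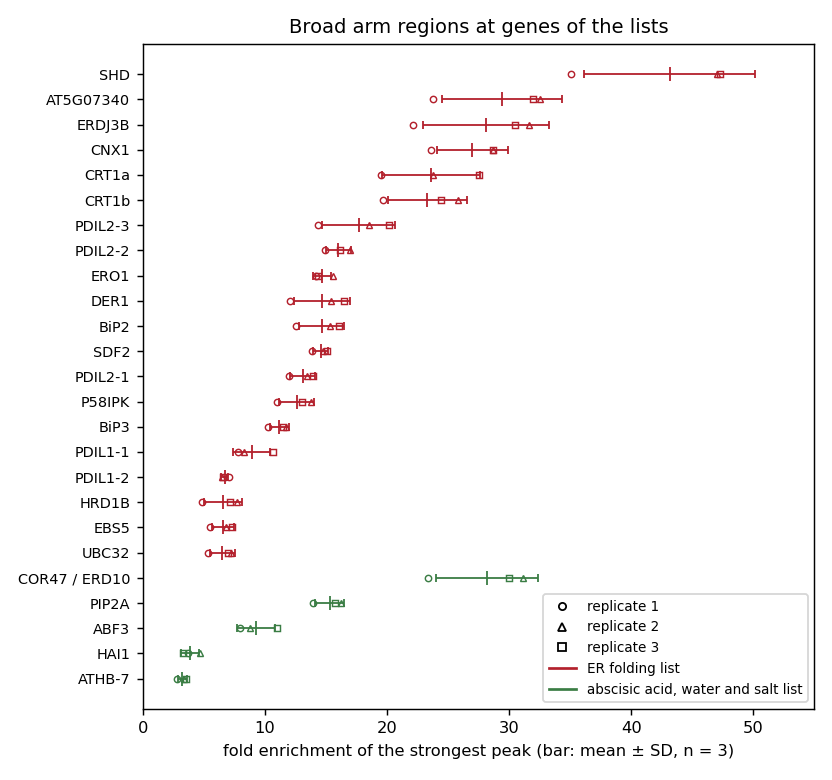
Fold enrichment of the strongest peak in each replicate (x axis; circles, triangles and squares are replicates 1, 2 and 3) at the 25 broad arm regions joined to a gene of the ER folding list (red) or of the abscisic acid, water and salt list (green); bars are mean ± SD, n = 3. *SHD* lies highest with a mean of 43.1, and replicate 1 is the lowest of the 3 in 19 of the 20 red regions.

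Of a list of 23 genes of ABA, water and salt responses, 6 were at broad arm regions (26.1%) and 8 at compact ones (34.8%), beside 1.87% and 5.88% of all protein-coding genes. The 6 genes shared 5 regions, which had a median fold enrichment of 9.25, from 3.22 to 28.2. The dehydrin genes *COR47* and *ERD10* stand for 1 region (chr1:7084410-7091902) with 23.4, 31.1 and 29.97 in the replicates. *PIP2A*, an aquaporin of the plasma membrane, had 13.9, 16.2 and 15.7, a mean of 15.3 ± 1.19 (SD, n = 3), at chr3:19804960-19809221. *ABF3*, a bZIP factor of ABA-induced transcription, had 7.95, 8.78 and 11.02, a mean of 9.25 ± 1.59 (SD, n = 3), at chr4:16294076-16296738. The 2 remaining genes were near the low end of the broad arm regions. *HAI1*, a phosphatase that restrains ABA signalling, had 3.66, 4.64 and 3.24, and its mean ranked 239 of 268. *ATHB-7*, a homeodomain factor induced by ABA, had 2.78, 3.37 and 3.51 and ranked 251. By ChIP-qPCR, the study reported binding at the *ATHB-7* promoter, as it did for *SDF2*, *ERDJ3B*, *SHD* and *CNX1*. The summit lay inside a protein-coding gene in 9 of the 20 ER regions and in 0 of the 5 ABA regions, beside 22.0% of all broad arm regions, and 5 regions are too few for a comparison.

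Of 16 genes for heat shock factors and cytosolic chaperones, 0 were at a broad arm region, where 1.87% of all protein-coding genes were, so that 0 of 16 is near the share over all genes. *HSFA1D*, *HSFB1*, *MBF1C*, *HSP101* and *HSC70-1* were at compact regions, 5 of 16 beside 5.88% of all protein-coding genes, and the other 11 were at no common region. The seedlings had been at 42 °C, a temperature at which many of these genes are known to be induced.

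Some of the strongest broad regions lay at genes outside the 3 lists. The region at chr5:437019-444975, between *AT5G02220* (*SMR4*, a relative of the cell cycle inhibitor SIAMESE) and *AT5G02230*, had 26.4, 29.9 and 30.1, a mean of 28.8 ± 2.11 (SD, n = 3). It was covered by peaks of all 3 replicates over 92.6% of its length, the highest share of all broad arm regions, and its summits lay within 3 bp. The region at chr5:6166471-6172852, beside *PUCHI*, an AP2 factor of lateral root and floral development, had 22.8, 28.6 and 28.4, a mean of 26.6 ± 3.28 (SD, n = 3). The region at chr5:4154732-4159454, between *AT5G13090* and *AT5G13100*, reached a mean of 28.9 ± 4.39 (SD, n = 3) at a width of 4723 bp. The second widest region, 10476 bp at chr5:6041071-6051546, lay between *ANAC087*, a NAC factor of programmed cell death in the root cap, and the apyrase gene *APY2*, with 20.1, 25.8 and 22.3. It consisted mainly of 1 peak per replicate, 8898, 10264 and 9012 bp wide. Fold enrichment was 14.0, 20.3 and 17.5 in the 9937-bp region beside *OXS2*, a zinc finger factor of stress tolerance (chr2:17483885-17493821).

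The summits of broad arm regions were close together in the 3 replicates. The distance between the outermost of the 3 summits had a median of 43 bp, from 2 to 4868 bp, and was 115 bp in the compact regions. It was at most 50 bp in 156 regions (58.2%, against 20.8% of the compact regions) and at most 200 bp in 244 regions (91.0%, against 67.1%). In contrast, the ends of the regions were loose. The starts of the first peaks differed by a median of 638.5 bp between replicates and the ends of the last peaks by 597.5 bp, and the widest of the 3 strongest peaks was a median of 1.50 times as wide as the narrowest. A single peak of at least 2500 bp was present in every replicate in 95 regions (35.4%), and in 49 regions no single peak of any replicate reached 2500 bp. Bases covered by all 3 replicates made up a median of 59.9% of a broad arm region, against 42.7% of a compact region. Across the 268 regions, fold enrichment and summit distance had a Spearman's rho of −0.48, and both were read from the same peaks.

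The mean summit usually lay near the middle of the region. On a scale from 0 at the left end to 1 at the right end, its median was 0.509, from 0.160 to 0.852, and 129 of the 268 summits lay left of the centre. The middle stretch, from 0.25 to 0.75, held 248 summits (92.5%, and 92.1% in the compact regions). Across the 268 regions, mean fold enrichment and the relative distance of the summit from the nearer end had a Spearman's rho of 0.071. The 3 regions with the summit nearest an end all had low enrichment. They were at *HEC1*, a bHLH gene of the female reproductive tract (0.852, fold enrichment 4.33 ± 0.542), at *CYCB2;3*/*CAT3* (0.160, 4.89 ± 0.822) and at *AGP12*/*MAPKKK7* (0.830, 4.39 ± 0.403; SD, n = 3). At *CAT3*, a catalase gene, the strongest peaks were 3314, 742 and 2132 bp wide.

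**Figure D3:**
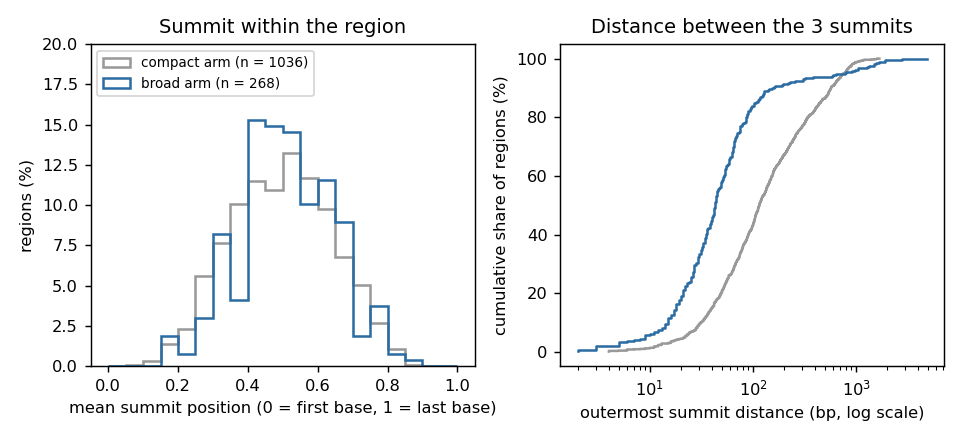
Left, position of the mean summit within the region (x axis, 0 is the first and 1 the last base) as the percentage of regions per bin; right, cumulative percentage of regions by the distance in bp between the outermost of the 3 summits (log scale). Blue lines are the 268 broad arm regions and grey lines the 1036 compact regions; the median positions are 0.509 and 0.501, and the median distances 43 and 115 bp.

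Each deposited peak has 1 summit, so a region with more than 1 peak in a replicate has more than 1 summit there. This was the case in at least 1 replicate in 185 broad arm regions (69.0%). The share was 14.7% in the compact regions and 25.5% in all common regions, which include the broad ones. The number of peaks rose with width (Spearman's rho 0.402 across the 268 regions). Merging more peaks makes a region wider, and the regions were chosen by merged width, so these values describe the rule as well as the regions. In 83 broad arm regions every replicate had 1 summit, and in 33 regions every replicate had more. The 83 regions had a median fold enrichment of 8.06 and the 185 regions 7.58. There were 382 secondary summits in all, with 128, 115 and 139 in replicates 1, 2 and 3. Most of them were weak and had no matching summit in another replicate. Their median fold enrichment was 2.25, 360 of them (94.2%) were under 3, and their median was 31.4% of the main summit of the same replicate. No other replicate had a summit within 200 bp for 261 of them (68.3%), 1 other replicate had for 109, and both others had for 12. They lay a median of 1997 bp from the main summit. A secondary peak can also lie inside a longer peak of another replicate, and such cover does not enter these counts. At *CRT1a*, for example, the secondary peaks of replicates 1 and 3 lie inside the only peak of replicate 2.

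Some regions had more than 1 site, and in the widest region both sites were strong. The widest broad region, 13436 bp at chr1:9488894-9502329, had its main summits at 9492839, 9492839 and 9492837, next to *AT1G27330*, with fold enrichments of 16.1, 20.4 and 20.5. Replicates 2 and 3 had a second peak with summits at 9499521 and 9499548, near *AT1G27350*, with 14.4 and 17.3. Replicate 1 had a single peak of 10668 bp across both places, for which the list gives 1 summit. The second site is therefore missing from replicate 1 only as a summit and not as a covered stretch. The merged region touches 5 protein-coding genes, from *HK3*, a cytokinin receptor gene, to *SPL11*, which is the gene that the study's table lists.

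The region between *GATL3* and *RAV1* (chr1:4533903-4542332) had 2 sites. *RAV1* encodes a factor that restrains growth and flowering. The main summit was at 4540759 in replicate 1 and 4540844 in replicate 3 but at 4535976 in replicate 2, which gave the largest summit distance of all, 4868 bp. The other site was present in each replicate, with summits at 4536036, 4540812 and 4535978 for replicates 1, 2 and 3. At the left site the fold enrichment was 3.86, 4.41 and 4.24 and at the right site 4.35, 4.25 and 5.75. The lower site reached 88.6, 96.3 and 73.8% of the higher one in replicates 1, 2 and 3. Of the 268 regions, 18 had summits over 500 bp apart and 11 over 1000 bp, and in these 11 the mean fold enrichment was between 2.27 and 4.84. The most peaks, 11 over the 3 lists, were in the region at *AT5G65120*/*AT5G65130* (chr5:26010926-26018541), where the main fold enrichment was 7.19, 7.24 and 8.30. The region beside *ARF10*, an auxin response factor gene, held 10 peaks at chr2:12106931-12114300. Its main summits lay within 30 bp and had 6.98, 8.18 and 8.33, while its other 7 peaks ran from 2.23 to 3.18.

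The low end of the broad arm regions was formed by weak peaks. The lowest mean, 2.27 ± 0.374 (SD, n = 3), was at *TIC*, a gene of the circadian clock, with 1.84, 2.53 and 2.45. Its strongest peaks were 917, 527 and 2534 bp wide, their summits were up to 1892 bp apart, and no base was covered by all 3 replicates. *AT3G14067* (2.28 ± 0.0695) and *FLP* (2.32 ± 0.280; SD, n = 3), a MYB gene of stomatal patterning, also had no base in common, as 4 regions did in all. *MYB55*/*PPOX* had 2.40 ± 0.160 and *AT3G25870* 2.42 ± 0.237 (SD, n = 3). Fold enrichment was under 3 in 15 of the 268 regions. In the 5 lowest regions, a strongest peak of at least 2500 bp was found in replicate 3 at *TIC* and in replicate 1 at *MYB55*/*PPOX*, and in no replicate at the other 3.

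Replicates ranked the broad arm regions alike by fold enrichment, but replicate 1 was lower. For fold enrichment, Spearman's rho was 0.972 for replicates 1 and 2, 0.971 for 1 and 3 and 0.977 for 2 and 3, against 0.770, 0.775 and 0.803 in the compact regions, where the range of values is narrower. Replicate 1 had the lowest value of the 3 in 196 regions (73.1%), and replicates 2 and 3 in 36 each. The median ratio was 1.15 for replicate 2 over 1, 1.16 for replicate 3 over 1 and 1.001 for replicate 3 over 2. This was clearest at strong regions. Among the 86 regions with a mean of at least 10, replicate 1 was the lowest in 77 (89.5%) with ratios of 1.22 and 1.19, and among the 66 regions under 5 it was the lowest in 34 (51.5%) with ratios of 1.05 and 1.09. The lists state no read totals that could be set beside this difference. The CV of the 3 values had a median of 11.2% and did not exceed 28.1%. Replicate 1 was not lower in width. Its strongest peaks had a median width of 2822 bp, against 2596 bp in replicate 2 and 2494.5 bp in replicate 3.

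The broad arm regions were found on all chromosomes. There were 83 on chromosome 1, 41 on chromosome 2, 48 on chromosome 3, 29 on chromosome 4 and 67 on chromosome 5. Per Mb of arm, counted up to the last peak of the chromosome, these are 3.27, 2.71, 2.67, 1.86 and 3.05. Broad regions made up 17.7% (chromosome 4) to 23.4% (chromosome 2) of the common regions on the arms. The median fold enrichment was 7.19, 8.03, 6.67, 8.68 and 7.89 on chromosomes 1 to 5, a narrow range beside the spread among regions. The arm of chromosome 1 before the window had the most, with 52 regions or 4.16 per Mb against 31 or 2.40 per Mb after the window, while its compact regions numbered 168 and 140. The short arm stretches of chromosomes 2 and 4 before the window held only 4 and 3 regions, so their rates rest on few regions.

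**Figure D4:**
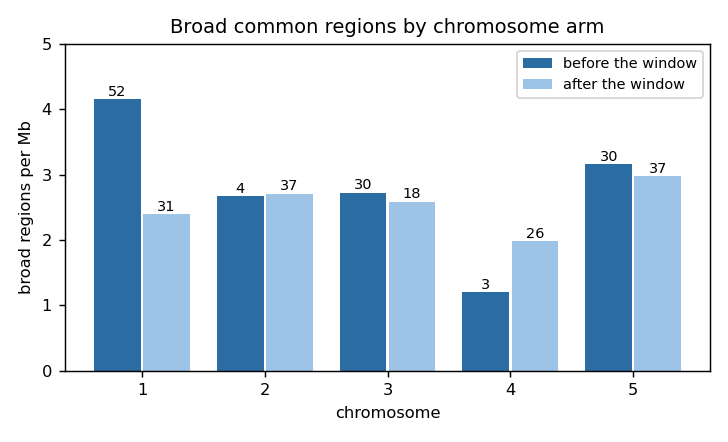
Broad common regions per Mb of chromosome arm (y axis) on chromosomes 1 to 5 (x axis), before (dark bars) and after (light bars) the pericentromeric window, with the number of regions above each bar. The rate is 4.16 per Mb before and 2.40 per Mb after the window of chromosome 1, and the bars before the windows of chromosomes 2 and 4 rest on 4 and 3 regions.

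Neighbouring broad regions were a median of 188.28 kb apart, and 22 of 263 neighbouring pairs were less than 20 kb apart. The nearest pair was that of *CNX1* and the region at chr5:24834974-24837929, in *AT5G61820*, with a gap of 117 bp. The first had a mean fold enrichment of 27.0, and the second had 5.31, 5.20 and 5.89, a mean of 5.46 ± 0.370 (SD, n = 3), with summits within 13 bp. Some close pairs differed less than this. One lay at *AFP1*, whose protein binds the ABA factor ABI5, and *RPK1*, a receptor kinase gene of ABA responses, with means of 4.47 and 6.46 and a gap of 1106 bp on chromosome 1. Another was that of *SK20*/*PIP1B* and *CYP86A8*, with 4.08 and 6.09 and a gap of 1575 bp. Other close pairs were more unequal, such as 2.32 at *FLP* beside 17.2 at *UTR3*, and 10.2 at *AOX1A*, the stress-inducible alternative oxidase gene, beside 2.27 at *TIC*. These pairs were picked after their values were seen. How often a weak broad region lies beside a strong one was not counted, and 86 of the 268 regions (32.1%) had a mean of at least 10.

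The mean summit lay in a protein-coding gene in 59 broad arm regions (22.0%) and in 417 compact regions (40.3%). With the summit of a single replicate it was 65, 67 and 62 of the 268 regions. The other 209 summits lay outside protein-coding genes, and 70 of the 268 summits lay in a gene of any type. Regions with the summit in a gene had a median fold enrichment of 7.41. Of the broad arm regions, 91 touched 1 annotated gene, 140 touched 2 or 3 and 20 touched 4 or more, up to 8. The reference table gives no strand, so which end of a gene a summit was near is not known. The study's table of target genes, in the lines used here, names a gene for 50.5% of all common regions and for 161 broad arm regions (60.1%). It names 212 genes for them, which is 25.2% of its 842 genes, and 2 or more genes for 45 regions. In these lines, the peaks at *SHD*, *CNX1*, *ERDJ3B* and *BiP2* are listed for the neighbours *TLP1*, *APC1*, *MYB11* and *ABIL4*. Only part of that table was used, and the study itself names *SHD*, *CNX1* and *ERDJ3B* as targets, so nothing follows from a gene that is not named here.

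The study lists genes that heat raised in WT flowers but not in *bzip17* flowers. They were found by RNA-seq of floral buds, a tissue and heat treatment other than those of these seedlings. Such a gene was at 34 broad arm regions (12.7%) and at 107 compact ones (10.3%). Over all common regions the share with such a gene was 10.7%, so the share in broad arm regions was close to it. Of the 212 genes that the study's table names for broad arm regions, 16 were on the flower list (7.55%). In the lines used, 57 of all 842 genes were (6.77%). The 34 regions had a median fold enrichment of 8.38, and the other broad arm regions 7.59. They included 9 of the 20 ER regions, among them *SHD*, *ERDJ3B*, *CNX1*, *SDF2*, *P58IPK*, *PDIL1-2*, *Hrd1B* and *EBS5*. By RT-qPCR, the study found *CNX1* and *ERDJ3B* raised by heat in WT flowers but not significantly changed in *bzip17* flowers. In the same assay *SDF2* and *SHD* were still raised by heat in *bzip17* flowers, by a smaller fold than in WT. Outside the ER list, *LHB1B1*, which encodes a chlorophyll-binding protein of photosystem II, had 13.7, 18.5 and 19.6, and *PRR7*, a repressor in the circadian clock, had 7.59, 8.27 and 8.46. The lowest of the 34 was *AGF2*, with 2.48, 2.40 and 2.41. Broad regions at these genes therefore ran over nearly the whole range of enrichment.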

How the data were processed

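ChIP-seq peak lists of 3 anti-MYC samples were used; the input entered only through the peak calling. The authors trimmed the reads, dropped those under 50 bp, kept unique Bowtie alignments, removed duplicates and called peaks with MACS for each ChIP sample against the input at a *P* value limit of 0.001. The submitters' processing notes name TAIR10, Bowtie and edgeR, and versions are not given in the sources used here. The deposited pileup is a signal in fragments at the summit. The deposited fold enrichment is a ratio of pileup to local background. The authors' lists also hold, per peak, a −log10 p-value and a −log10 q-value. Removal of duplicates limits very high pileups. Read totals are unknown, so no counting interval is given and precision is shown by the 3 replicates alone.

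Peaks were merged at 1 bp of overlap with Python 3.11.15, pandas 2.3.3, NumPy 2.4.6 and SciPy 1.17.1; figures used matplotlib 3.10.9. The merging was tested on simulated data. Gene names and neighbours came from a RefSeq gene table (assembly TAIR10.1), whose coordinates are not given. The study's table of target genes was used in part (1389 lines used, 1240 not used), joined by peak name. Regions named are the 10 widest, the 10 highest and 5 lowest by mean fold enrichment, the 5 with most peaks, the 3 with the summit nearest an end, 3 on each side of the width limit, and those at genes of 3 lists; others were named after their values were seen, as were the pairs of neighbours, *MYB108*, *LHB1B1*, *PRR7* and *AGF2*. The members and lists were chosen with earlier results of these data known. Motif searches were not run, since no genome sequence was used here.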

Additional observations from a re-analysis of the deposited data

How the results depend on the processing

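The description was repeated under 46 alternatives, of which 37 were planned and 9 were added after seeing the data. In 33 of them the value moved by less than 1.5 times (counts) or by less than the replicate spread, and in 13 it moved further. The 268 broad arm regions became 92 when 2500 bp had to be covered by all 3 replicates and 95 when every replicate had to have a peak of at least 2500 bp. Both follow from stricter demands on the same peaks. With each replicate left out in turn there were 206 to 228. The median fold enrichment of 7.82 became 6.64 with the mean of all peaks of a replicate and 8.71 in regions of at least 3000 bp. The median summit distance of 43 bp became 24.5 to 29.5 bp with each replicate left out, since 2 summits span less than 3. The 20 genes of the ER list became 9 with the study's table alone. The share of summits in a gene, 22.0%, was 26.1% with genes of any type, 20.5% in regions with summits within 200 bp, and 24.3, 25 and 23.1% with the summit of replicate 1, 2 or 3 alone. The planned share of regions with an ACGT core near the summit was not run, as no genome sequence was used here. No paired analysis was possible because all ChIP samples belong to 1 condition. Without read totals, a region with no peak in a replicate cannot be told from one just under the limit of the peak calling.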

Other observations

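Genes of the secretory pathway outside the ER list were also seen at broad arm regions, and those given here were named after their values were seen. *UTR1* and *UTR3* encode transporters of nucleotide sugars. The region beside *UTR1* (chr2:799396-804468) had a fold enrichment of 16.9, 23.5 and 22.4 in replicates 1, 2 and 3, a mean of 20.9 ± 3.57 (SD, n = 3), and that at *UTR3* (chr1:4910977-4915580) had 15.8, 17.7 and 18.1, a mean of 17.2 ± 1.24 (SD, n = 3). *p24delta5*, a cargo receptor between the ER and the Golgi, had 17.1, 20.4 and 20.7 at chr1:7688997-7695516. *ERD2*, whose protein returns ER residents from the Golgi, had 6.51, 7.49 and 8.88, a mean of 7.63 ± 1.19 (SD, n = 3), near the median of the broad arm regions. *TIN1*, named for its induction by the ER stress agent tunicamycin, had 15.6, 17.5 and 17.8 at chr5:25781571-25787094. In all 5 regions replicate 1 was the lowest. How many genes of the secretory pathway lie at broad arm regions was not counted.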
